A study of Erythranthe guttata with 80 samples.

Results

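A set of 58 genes, of 28140 genes counted, was transcribed in floral buds and hardly in leaves, and was higher in the buds of coastal than of inland plants of Mimulus guttatus, the yellow monkeyflower. Members were chosen on CPM (a gene's count per 1000000 counts of its library), averaged over the plants of a group. A member averaged under 2 CPM in each of 6 leaf groups and at least 10 CPM in Coast buds, and its Coast bud mean was at least 4 times its Inland bud mean after 0.5 CPM was added to both. The rule was met by 61 genes, and 3 of these were left out because the paper on these samples names them by identifier. Because the rule used the leaf levels and the bud difference, both are given here as descriptions, with no test.

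The study compared a coastal perennial and an inland annual ecotype through development, from the first true leaves to floral buds, with 3′-Tag-Seq, which reads each transcript at its 3′ end. The coastal line, SWB-4 (Coast), was sampled as floral buds and as leaves at the 2leaf, 4leaf, 6leaf and 8leaf stages. The inland line, LMC-17 (Inland), was sampled as floral buds and as leaves at the 2leaf and 4leaf stages. Each of the 8 groups held 10 plants grown under the same conditions in a growth chamber, with 1 tissue taken per plant, and no group carried an added treatment. Each ecotype is a single inbred accession, so line and ecotype cannot be told apart.

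A floral bud holds sepals, petals, stamens and carpels, and inside the anthers and ovaries the developing pollen and ovules. Many plant genes are transcribed in a single one of these tissues, or only for a short time while the pollen, the anther wall or the petals mature, and such genes are silent or nearly silent in leaves. The annual and perennial ecotypes of this species are known for the timing and the amount of their flowering, the annual flowering early and the perennial later and after more leaf growth. In a bulk bud sample, fewer cells of a type and less RNA per cell cannot be told apart. The identifiers below are those of the counted v2.0 gene models, and no gene name or function was assigned to a member.

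The 80 libraries held 1256776 to 6090402 counts, and those of the 2 bud groups held 3340447 to 5011321 (Coast) and 1256776 to 6090402 (Inland). The tissue label was checked with 6 leaf-expressed genes named by the study, whose summed level was 535 to 903 CPM in Coast buds and 354 to 495 CPM in Inland buds, against group means of 2989 to 3537 CPM in leaves. The study chose these genes on the same samples, so they check the tissue label only. Plant 7 of the Coast buds and plant 7 of the Inland buds stood apart from their groups for many members, and the counts and sums over members that they move most are given with and without them below. Equal plant numbers in different groups name different plants.

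Members averaged 10.0 to 781 CPM in Coast buds, with a median of 21.6 CPM. Of the 58, 9 exceeded 100 CPM there and 25 stayed under 20 CPM, so most of the set consisted of modestly expressed genes. The rule's ratio of Coast to Inland bud means ranged over members from 4.05 to 136, with a median of 9.83. Members together took 0.351% of the counts of a Coast bud library and 0.0362% of those of an Inland bud library, on average. Migut.N01740 and Migut.E01094, the most abundant members, made up 35.8% of the members' summed level in Coast buds. In leaves, 39 of 58 members averaged under 0.5 CPM in every group, and the summed level of all members was 5.19 to 38.5 CPM per leaf library, of either line.

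**Figure D1:**
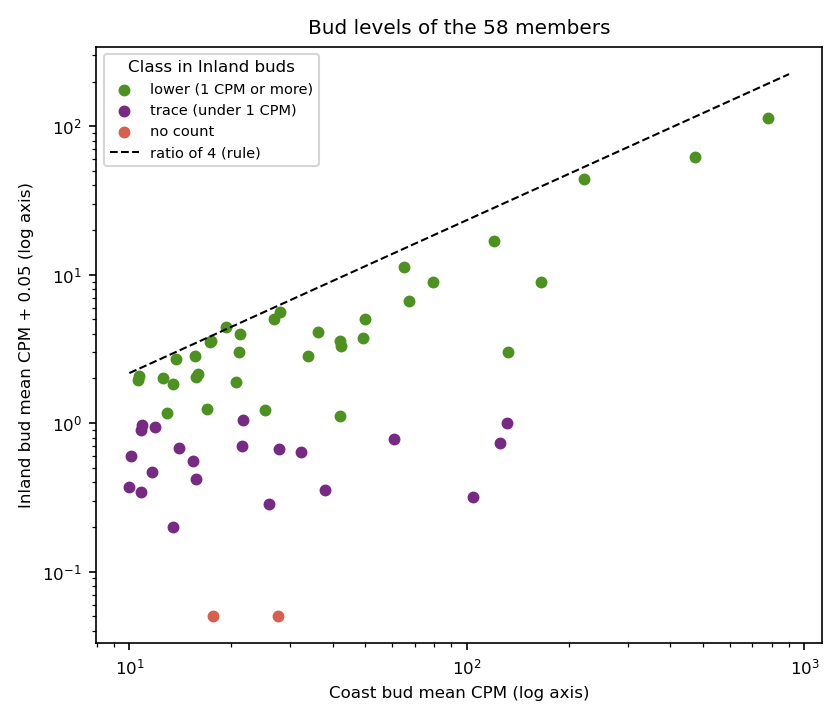
Mean level of each of the 58 members in Coast buds (horizontal, CPM, log axis) and Inland buds (vertical, CPM with 0.05 added, log axis), 1 point per gene, 10 plants per mean, coloured by class in Inland buds; the dashed line is the ratio of 4 that the rule required. The 2 genes with no count lie at the bottom, 21 genes lie under 1 CPM and 35 genes at or over it.

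Absence from Inland buds was told apart from a lower level by the counts. Only 2 of the 58 members had no count in any of the 10 Inland bud libraries, which together held 29269955 counts. A further 21 members had a trace there, defined as more than 3 counts in all but a mean under 1 CPM, and these had 4 to 33 counts. The other 35 were lower, with Inland bud means of 1.06 to 114 CPM, and 20 of the 58 members had a count in all 10 Inland bud plants. The lowest of these means, that of Migut.N00445, rested on 58 counts in 5 plants, with a median of 0.136 CPM and 8.7 CPM in plant 7. No member fell on 1 to 3 counts. Without Inland plant 7 the classes again held 2, 21 and 35 members, with 4 members in another class than before, and the Inland bud means of the lower members were 1.0 to 54.2 CPM. The rule's ratio had a median of 18.6 (8.01 to 136) among trace members and of 6.83 (4.05 to 38.1) among lower members.

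The members with no count in Inland buds were Migut.H02326 and Migut.F00645. Migut.H02326 had a lowest, median and highest level of 12.9, 24.5 and 62.7 CPM over the Coast bud plants, against 0 in every Inland bud plant. Migut.F00645 had 9.28, 14.0 and 32.5 CPM over the Coast bud plants, again against 0 in every Inland bud plant. Every Coast bud plant had counts of both genes, and no Inland bud plant had a count of either. Set against a floor of 3 counts over all Inland bud libraries, Migut.H02326 was at least 262-fold and Migut.F00645 at least 175-fold higher in Coast buds. Over the Inland leaf libraries there were 3 counts of Migut.H02326 and 4 counts of Migut.F00645, at or near the floor of 3 counts. Whether these few counts were true reads of the inland line was not tested. Counts in Coast leaves were found for all 58 members, and counts in Inland leaves for 56.

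The most abundant trace members were nearly as sharply divided. Migut.J01736 had a lowest, median and highest level of 52.6, 119.6 and 277 CPM in Coast bud plants, against 0, 0.866 and 2.2 CPM in Inland bud plants. Migut.D02012 had 54.1, 111 and 308 CPM in Coast bud plants, against 0, 0.531 and 2.2 CPM in Inland bud plants. For both, the lowest Coast plant lay far above the highest Inland plant, and the top Coast value came from plant 1. The ratio of the rule was 90.7 for Migut.J01736 and 106 for Migut.D02012. The largest ratio of all, 136, belonged to Migut.H01250 (chosen after its value was seen), with a median of 125 CPM in Coast buds and 9 counts over all Inland bud libraries.

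Among lower members, Migut.H02099 and Migut.E01237 were high in all Coast plants. Migut.H02099 had 62.2, 133 and 193 CPM (lowest, median, highest) in Coast bud plants and 0, 3.24 and 5.72 CPM in Inland bud plants, and it had the largest ratio of the class, 38.1. Migut.E01237 had 70.1, 176 and 229.5 CPM in Coast bud plants and 4.77, 8.16 and 18.6 CPM in Inland bud plants, a ratio of 17.6. Neither gene's groups overlapped, and every Inland plant kept some Migut.E01237.

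The other abundant members overlapped between the lines. Migut.N01740, the most abundant, had 1.38, 721 and 1958 CPM (lowest, median, highest) in Coast bud plants and 0, 9.5 and 785 CPM in Inland bud plants. The lowest Coast value came from plant 7 and the highest Inland value also from plant 7, so that for this gene Inland plant 7 exceeded 6 of 10 Coast plants. Its Inland bud mean was 39.2 CPM and its ratio 19.7 without Inland plant 7, against 114 CPM and 6.83 with it. Migut.E01094 had 77.1, 441 and 1061 CPM in Coast bud plants and 23.2, 49.7 and 129.5 CPM in Inland bud plants, and Coast plant 7 alone lay within the Inland range. Migut.I01055 had 8.29, 216 and 375 CPM in Coast bud plants against 2.39, 17.0 and 231 CPM in Inland bud plants. Migut.N00624 had 6.63, 116 and 209 CPM in Coast bud plants against 1.16, 5.13 and 87.5 CPM in Inland bud plants. For these 4 genes the lowest Coast plant and the highest Inland plant were plant 7 of each group.

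**Figure D2:**
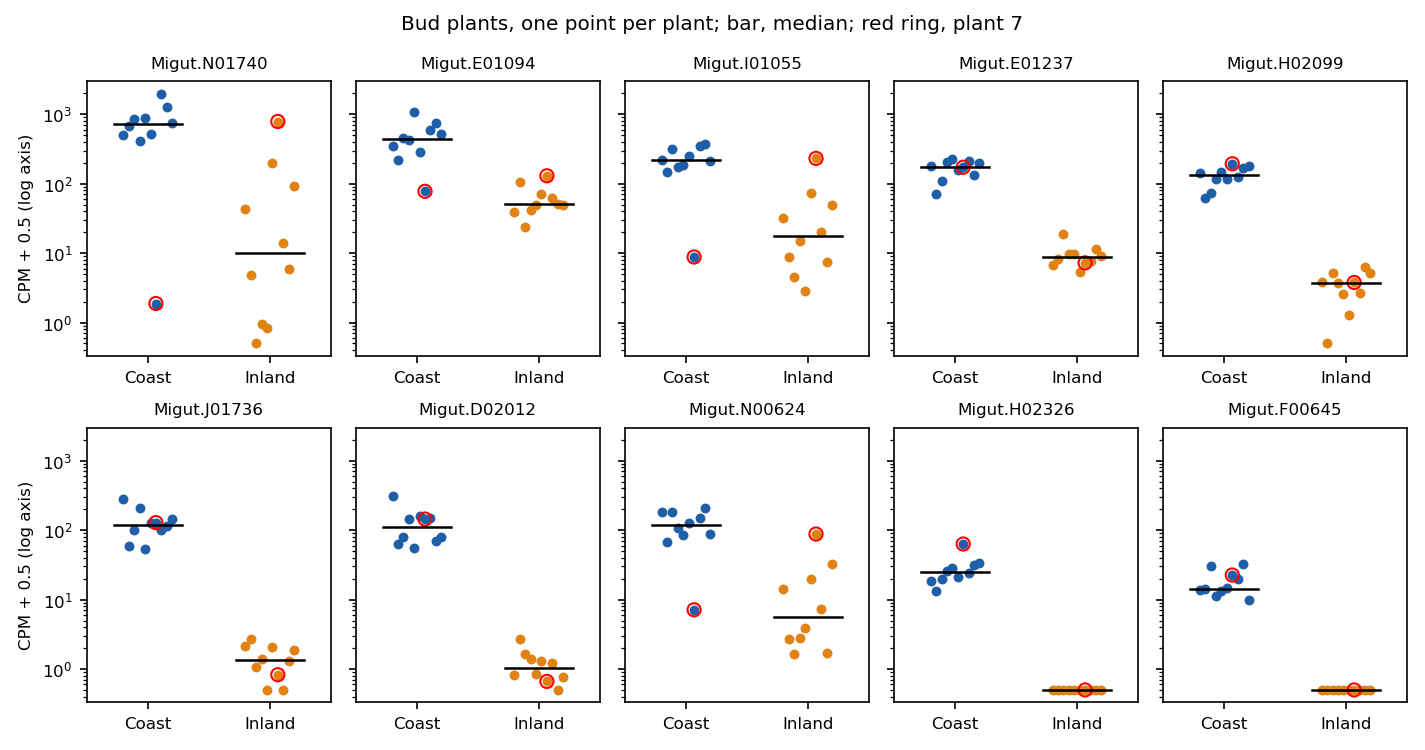
Level (CPM with 0.5 added, log axis) of the 8 most abundant members with counts in both lines and of the 2 members with no count in Inland buds, in each Coast and Inland bud plant; bars are medians of 10 plants and red rings mark plant 7. In Migut.N01740, Migut.E01094, Migut.I01055 and Migut.N00624 the ringed Coast plant is the lowest and the ringed Inland plant the highest, while in the other 6 genes all Coast plants lie above all Inland plants.

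Over the whole set, every Coast bud plant exceeded every Inland bud plant for 26 of 58 members. The same was true of 11.4% of the 16735 genes tested, and since the rule chose members on this contrast nothing is read from the difference. At least 9 of the 10 Coast plants exceeded every Inland plant for 36 members, and the fewest for any member were 4 of 10. The share of all genes was not computed for these counts, and nothing is read from them. Without Coast plant 7 the groups were apart for 31 members (12.3% of genes tested). Without Inland plant 7 they were apart for 30 (12.5%), and without both for 42 (13.5%). Applied without both plants, the rule gave 65 genes, 57 of them members. These plants were left out only after the data were seen. The Coast mean was higher within each of the 4 library pools, for 58, 58, 57 and 58 members, in the order of the pools. Each pool held 2 or 3 plants of each line. Members were chosen on these same libraries, so a higher Coast mean in each pool was largely set by the rule. A ratio of at least 4 held for 49, 57, 47 and 51 members within the pools.

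The values at the thresholds were close on both sides. Just inside the ratio of 4, Migut.L01169 averaged 19.3 CPM in Coast and 4.39 CPM in Inland buds (ratio 4.05), Migut.J00185 had a ratio of 4.41 and Migut.B01649 one of 4.49. Just outside it, Migut.N02619 had a ratio of 3.92, Migut.F01070 one of 3.82 and Migut.M01898 one of 3.77. The leaf levels nearest the limit of 2 CPM were those of Migut.E01378, at 1.9 CPM, and Migut.L01169, at 1.77 CPM. How many genes the rule holds depended on the scaling: with library totals corrected by trimmed means (TMM), 40 genes met it, and all 40 were members.

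Members did not follow a single profile over the Coast bud plants. The median correlation between pairs of members over the 10 Coast bud plants (Pearson's r of log2(CPM + 0.5)) was 0.112, with 26.9% of the 1653 pairs over 0.5 and 11.9% under -0.5. The same median was 0.51 among 423 bud-specific genes at 10 CPM or more in the buds of both lines that met neither this rule nor its mirror image, and 0.0198 among the 11597 genes at 10 CPM or more in Coast buds. These correlations are across plants that share library pools, and are descriptions. The coefficient of variation over Coast bud plants had a median of 53.2% for members (20.6 to 151%), 57.2% for the 423 shared bud-specific genes and 21.5% for the 11597 genes. The highest Coast plant was a median of 9.47 times the lowest for members, 6.43 times for the shared bud-specific genes and 1.96 times for the 11597 genes, and it was at least 10 times the lowest in 48.3%, 31.7% and 3.07% of these.

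Members were sorted into 3 profiles by the Coast plants in which they peaked, a grouping made after the values were seen and given with no test. The sorting itself largely set which Coast plants were high in the first 2 profiles. In 21 of 58 members (36.2%) the 2 highest Coast bud plants were plants 3 and 9, against 10.2% of the shared bud-specific genes and 5.04% of the 11597 genes. Over these 21 members the median level was 57.5 CPM in Coast plant 3 and 53.8 CPM in plant 9, against 1.38 CPM in plant 7 and 7.26 to 22.3 CPM in the others. The median level over the same members was 0.683 to 3.94 CPM in the Inland bud plants. These genes were the most uneven of the set, with a median coefficient of variation of 99.5%. The groups did not overlap for 2 of the 21, against 11.4% of all genes tested.

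Examples of this profile, chosen after their values were seen, were Migut.K00252 and Migut.F00076. Migut.K00252 had 0.778, 3.14 and 60.1 CPM (lowest, median, highest) in Coast bud plants and 1.71, 2.52 and 4.36 CPM in Inland bud plants. Migut.F00076 had 0, 3.56 and 68.5 CPM in Coast bud plants and 0, 1.04 and 4.76 CPM in Inland bud plants. Of the 10 Coast plants, 6 did not exceed the highest Inland plant for Migut.K00252 and 5 did not for Migut.F00076. With group medians in place of means, the rule gave 67 genes, 48 of them members.

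In 16 members (27.6%) the highest Coast bud plant was plant 1 or plant 7, against 65.2% of the shared bud-specific genes and 23.7% of the 11597 genes. The share was near that of the 11597 genes, so this profile is no trait of the members. Their median level was 41.6 CPM in Coast plant 1, 28.5 CPM in Coast plant 7 and 10.9 CPM in Coast plant 2, the lowest, against 0.341 to 1.74 CPM in the Inland bud plants. The groups did not overlap for 11 of the 16, which included Migut.J01736, Migut.D02012, Migut.H02099 and Migut.H02326. Migut.N02873, chosen after its values were seen, ran opposite to the genes of the first profile, with 238 CPM in Coast plant 7, a median of 34.4 CPM over Coast bud plants and at most 2.32 CPM in any Inland bud plant. The other 21 members had neither profile, and 7 of them peaked in Coast plant 3 or 9 without having both as the highest. They had a median coefficient of variation of 47.5%, and the groups did not overlap for 13 of them. Over all genes tested the share without overlap was 11.4%. The rule chose members on this contrast and the profiles were made afterwards, so nothing is read from these counts in the 3 profiles.

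**Figure D3:**
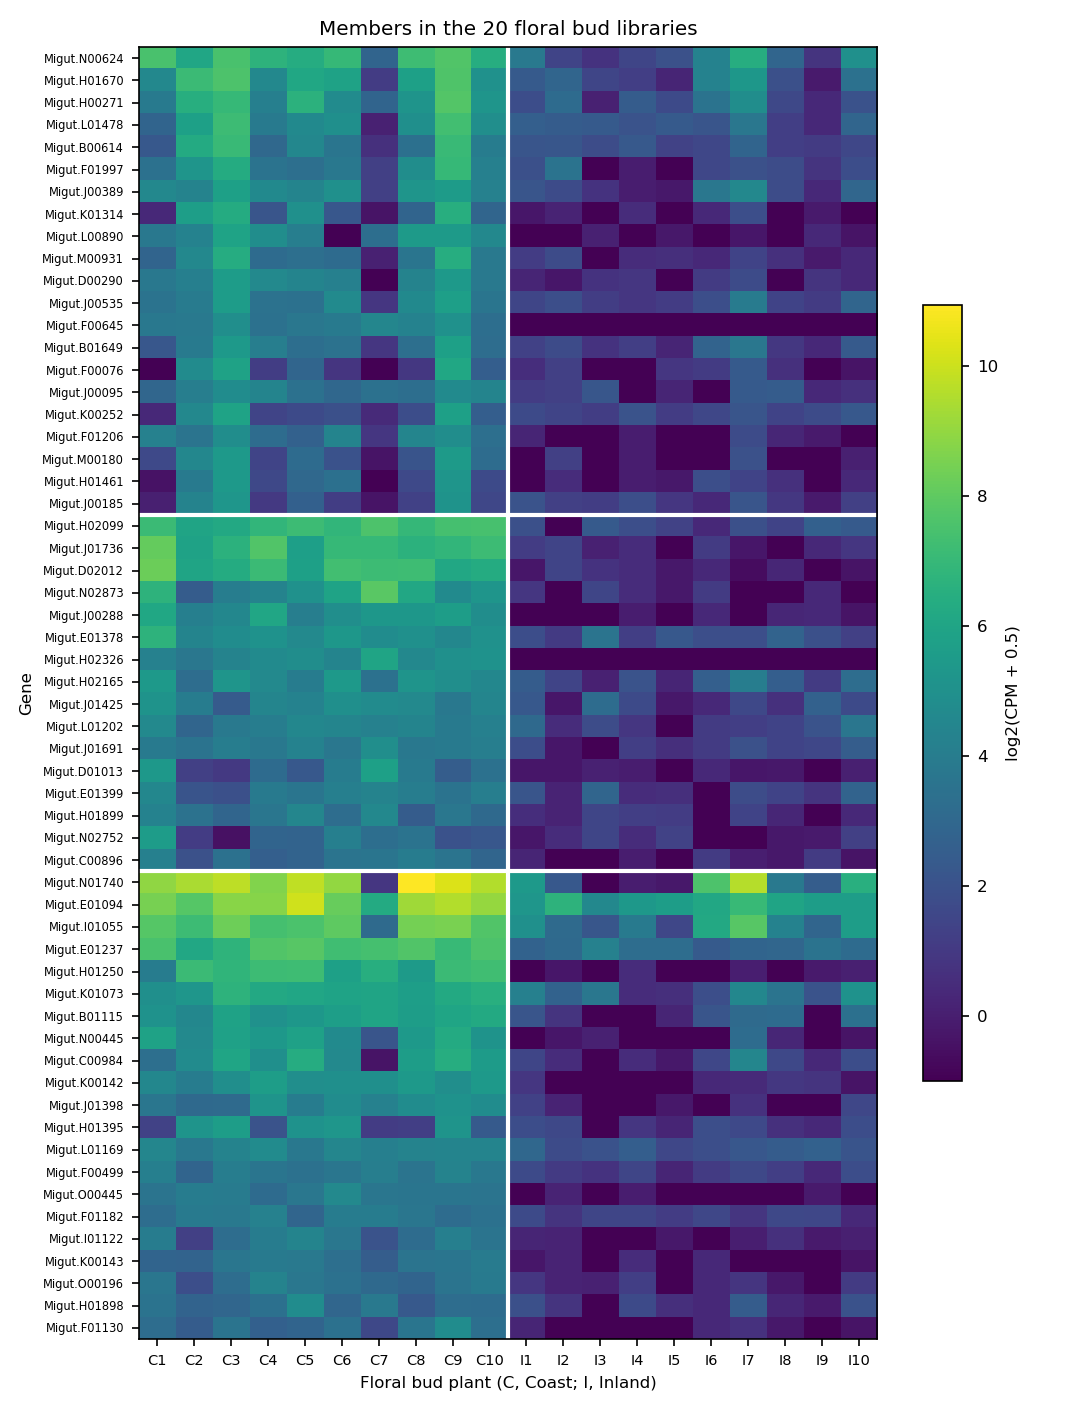
Level of each member (rows, log2(CPM + 0.5), colour) in the 10 Coast (C, left) and 10 Inland (I, right) bud plants; white lines separate Coast from Inland plants and the 3 profiles. In the top block of 21 genes plants C3 and C9 are brightest, in the middle block of 16 genes plant C1 or C7 is brightest, and the bottom block holds the other 21.

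Plant 7 was the lowest Coast bud plant for 25 of 58 members (43.1%), against 14.0% of the 11597 genes and 7.33% of the shared bud-specific genes. In Inland buds, plant 7 was the highest for 22 members (37.9%), against 14.5% and 9.93%. The summed level of the members was 3507 ± 1150.3 CPM in Coast buds and 362 ± 430.1 CPM in Inland buds (SD, n = 10 each). Without plant 7 of each group it was 3705 ± 1024 CPM in Coast buds and 231 ± 129 CPM in Inland buds (SD, n = 9 each). It was lowest among Coast buds in plant 7, at 1726 CPM, and highest among Inland buds in plant 7, at 1536 CPM. Without the 2 most abundant members the sums were 1647 to 3583 CPM in Coast buds and at most 621 CPM in Inland buds.

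Some bud genes that were higher in Inland buds moved with these plants in the opposite sense. A mirrored set of 175 bud-specific genes, chosen by the same rule with the lines exchanged, summed to 1026 to 13864 CPM in Coast buds, highest in plant 7, and to 14806 to 33920.5 CPM in Inland buds, lowest in plant 7. The sum of 4 bud cell wall genes named by the study (an inhibitor of pectin methylesterase, a pectin lyase and 2 arabinogalactan proteins) was 2349 CPM in Coast plant 7 against 301 to 1320.3 CPM in the other Coast bud plants. The same sum was 1687 CPM in Inland plant 7, the lowest of the Inland buds, whose other plants held 1966 to 4272 CPM. In both sums Coast plant 7 was the Coast plant nearest the Inland plants. The 423 shared bud-specific genes summed to 64601 CPM in Coast plant 7, the highest of the Coast buds. Their sum in Inland plant 7 was 49536 CPM, within the range of the Inland buds (41884 to 79996 CPM). The part of these plants and genes in the members' difference was not tested.

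**Figure D4:**
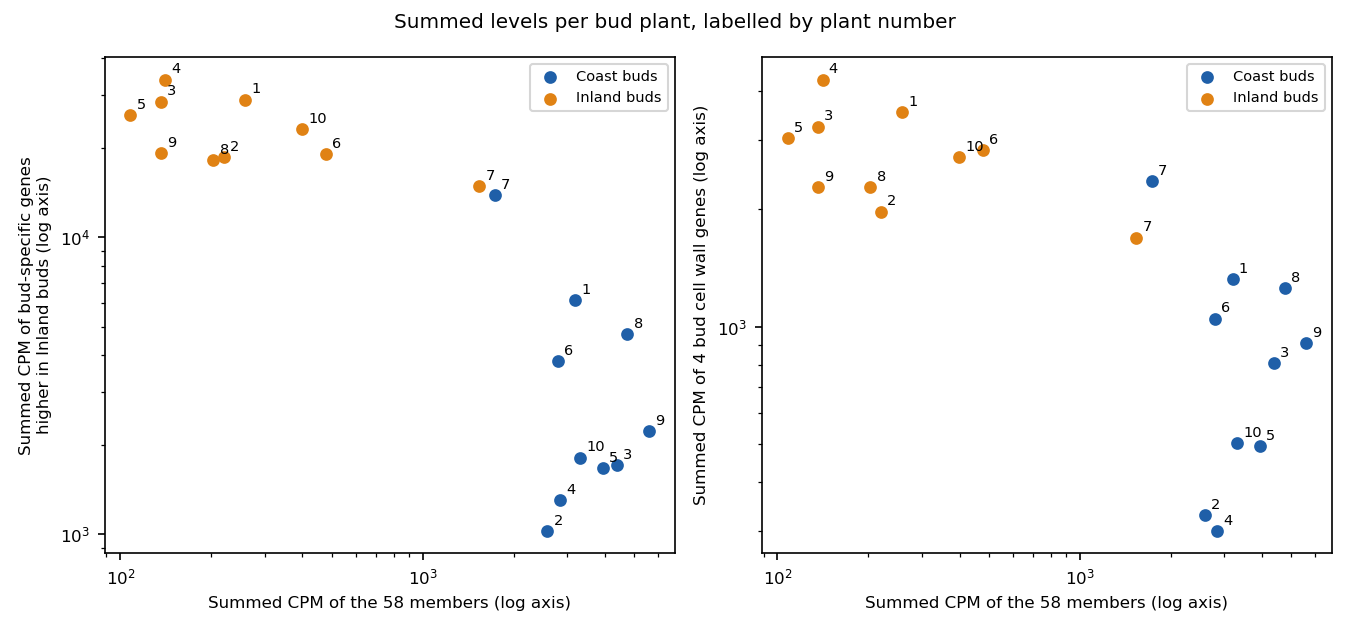
Summed level of the 58 members (horizontal, CPM, log axis) against the summed level of the 175 genes of the mirrored rule (left) and of 4 bud cell wall genes (right), both on log axes in CPM, 1 point per bud plant with its number. Coast plant 7 (1726 CPM) and Inland plant 7 (1536 CPM) lie between the other plants of the lines on the horizontal axis.

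Leaf differences between the lines were not used by the rule beyond its limit of 2 CPM, and were tested with edgeR's quasi-likelihood test and Benjamini-Hochberg adjustment over all 16735 genes tested. Of the 58 members, 49 passed the filter on low counts, and none passed on leaves alone, since no member reached the level of the filter in 10 of the 40 leaf libraries fitted. Only 2 members reached it in 10 Inland bud libraries, so passing leaned on the Coast buds, the group that the rule made high. The rule also held every leaf mean under 2 CPM. The counts below, and the differences and p-values of single members in the next paragraphs, therefore do not cover all members and are descriptions. Nothing is read from the counts beside the shares of all genes. The variance of a gene was estimated over its bud and leaf libraries together. In 2leaf leaves 9 of the 49 were higher in Coast plants and 0 were lower, where 25.5% of all genes tested were called higher and 24.7% lower. In 4leaf leaves 5 were higher and 3 lower, against 28.6% and 28.8% of all genes. Of the 49, 1 was lower at 2leaf at an unadjusted p under 0.05 with edgeR, and voom with limma and DESeq2 also called 0 lower. The 9 members that did not pass were not tested between the lines in leaves.

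The largest differences at 2leaf were those of Migut.H02165, Migut.H02326 and Migut.E01378. Migut.E01378 had 0.639, 1.72 and 3.15 CPM (lowest, median, highest) in Coast 2leaf plants, against 0, 0 and 0.62 CPM in Inland 2leaf plants. The lowest Coast plant (0.639 CPM) lay barely above the highest Inland plant (0.62 CPM). The share of all genes without overlap at 2leaf was not computed, and nothing is read from this gap. The difference was 3.68 ± 0.76 on the log2 scale (SE, n = 10 plants each, edgeR adjusted p = 4.44e-05). Migut.H02165 had 0, 0.217 and 5.43 CPM in Coast 2leaf plants and a single count in Inland 2leaf plants, with a log2 difference of 4.00 ± 1.17 (SE, edgeR adjusted p = 0.00323), and only 6 of 10 Coast plants had a count. Migut.H02326 had 14 counts over the Coast 2leaf plants, in 5 of them, and none over the Inland 2leaf plants (edgeR adjusted p = 0.00261), which sets it at least 4.37-fold higher in Coast plants against a floor of 3 counts over the group. With voom and limma, the calls of Migut.H02165 (adjusted p = 0.192) and Migut.H02326 (adjusted p = 0.0945) were lost, and over the alternatives the adjusted p of Migut.H02165 was 0.00019 to 0.192 and that of Migut.H02326 0.00129 to 0.0945.

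At 4leaf the members highest in Coast relative to Inland plants were Migut.F00499, Migut.J01691 and Migut.E01378. Migut.F00499 had 0, 1.43 and 3.06 CPM (lowest, median, highest) in Coast 4leaf plants and 0, 0 and 0.418 CPM in Inland 4leaf plants, and differed by 3.67 ± 0.53 on the log2 scale (SE, edgeR adjusted p = 2.55e-08). It was also higher in Coast at 2leaf, by 3.23 ± 0.56 (SE, edgeR adjusted p = 2.16e-06). Migut.J01691 differed by 2.50 ± 0.62 (SE, edgeR adjusted p = 0.000446), with a median of 1.04 CPM in Coast and 0 in Inland 4leaf plants. Migut.E01378 differed by 2.23 ± 0.62 (SE, edgeR adjusted p = 0.00174), and Inland plant 4 held 3.76 CPM where 8 Inland plants had no count.

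The 3 members called lower in Coast 4leaf leaves were Migut.O00196, Migut.H01395 and Migut.L01169. Migut.O00196 had no count in Coast 4leaf plants. Its 15 counts in Inland 4leaf plants fell on plant 4 (4.18 CPM) and plant 7 (2.26 CPM), and no other Inland 4leaf plant had a count. As group means, it was at least 5.55-fold lower in Coast plants against a floor of 3 counts over the group (edgeR adjusted p = 0.00128). Migut.H01395 had 0, 0 and 0.195 CPM (lowest, median, highest) in Coast 4leaf plants and 0, 0.413 and 1.67 CPM in Inland 4leaf plants (log2 difference -2.73 ± 1.07, SE, edgeR adjusted p = 0.0257). Migut.L01169 had 0.349, 0.792 and 1.73 CPM in Coast 4leaf plants and 0.176, 0.906 and 5.43 CPM in Inland 4leaf plants (log2 difference -0.96 ± 0.39, SE, edgeR adjusted p = 0.0294). The highest Inland value of all 3 came from plant 4, in which 4 cell division genes named by the study summed to 469 CPM against 33.6 to 214 CPM in the other Inland 4leaf plants. Their part in the result was not tested. Without 4 libraries known from earlier results to stand apart (Inland 4leaf plant 4, Coast 2leaf plant 9 and Inland bud plants 6 and 7), 1 of these 3 calls was left, that of Migut.O00196 (edgeR adjusted p = 0.0245, and 0.000583 to 0.142 over its alternatives). Its Inland 4leaf counts then lay in plant 7 alone, so nothing is read from this call being left. With voom and limma none of the 3 was called.

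The change of the line difference between 2leaf and 4leaf was called for 1 member, lower, where 2.54% of all genes tested were called higher and 3.94% lower. No member passed the filter on leaves alone, so this count is again a description. The member was Migut.L01169, higher in Coast at 2leaf by 1.96 ± 0.81 on the log2 scale and lower at 4leaf. Its interaction was -2.92 ± 0.90 (SE, edgeR adjusted p = 0.0354). Without the 4 libraries the interaction was -2.16 with an edgeR adjusted p of 0.139, and the call was lost, as was the call at 2leaf (1.44, edgeR adjusted p = 0.152). Over the alternatives the adjusted p was 0.0162 to 0.171 for the interaction and 0.0242 to 0.152 at 2leaf.

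Within the coastal line, the leaf stages were compared in a fit of all 80 libraries with 17136 genes. In this fit 50 members could be tested, again none on leaves alone, and their counts and p-values are likewise descriptions. At 4leaf against 2leaf, 0 members were higher and 1 lower, against 5.3% and 5.33% of all genes (edgeR, with 1 member higher at an unadjusted p under 0.05, 1 higher and 0 lower by voom with limma, and 0 higher by DESeq2). At 6leaf against 2leaf, 1 was higher and 4 lower, against 16.7% and 16.5%. At 8leaf against 2leaf, 2 were higher and 4 lower, against 20.5% and 19.5%, and with library size alone in place of TMM factors 3 were higher and 2 lower.

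Migut.L01169 and Migut.I01122 were the 2 members higher in 8leaf than in 2leaf leaves of Coast plants. The mean of Migut.L01169 was 0.308, 0.87, 1.21 and 1.49 CPM at 2leaf, 4leaf, 6leaf and 8leaf, with a log2 difference of 1.73 ± 0.42 between 8leaf and 2leaf (SE, edgeR adjusted p = 0.000516). Migut.I01122 had means of 0.125, 0.217, 0.365 and 0.789 CPM at the same stages, with a log2 difference of 2.02 ± 0.64 (SE, edgeR adjusted p = 0.00822). Both were at their highest Coast leaf mean at the last stage, and both stayed far under their Coast bud means of 19.3 CPM for Migut.L01169 and 11.7 CPM for Migut.I01122.

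The largest decreases at 8leaf were those of Migut.H02165, Migut.J00095 and Migut.J01691. Migut.J00095 averaged 1.57, 1.01, 0.741 and 0.527 CPM at 2leaf, 4leaf, 6leaf and 8leaf, with a log2 difference of -1.92 ± 0.45 (SE, edgeR adjusted p = 0.000268). Migut.H02165 differed by -2.81 ± 0.79 (SE, edgeR adjusted p = 0.00266), and its 2leaf mean of 1.0 CPM rested largely on plant 1, at 5.43 CPM. This call was lost with voom and limma (log2 difference -1.46, adjusted p = 0.104, and 0.0011 to 0.104 over its alternatives). Migut.J01691 differed by -1.28 ± 0.52 (SE, edgeR adjusted p = 0.0404), a call that was lost without the 4 libraries (-1.26, edgeR adjusted p = 0.0507, and 0.0231 to 0.135 over its alternatives).

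**Figure D5:**
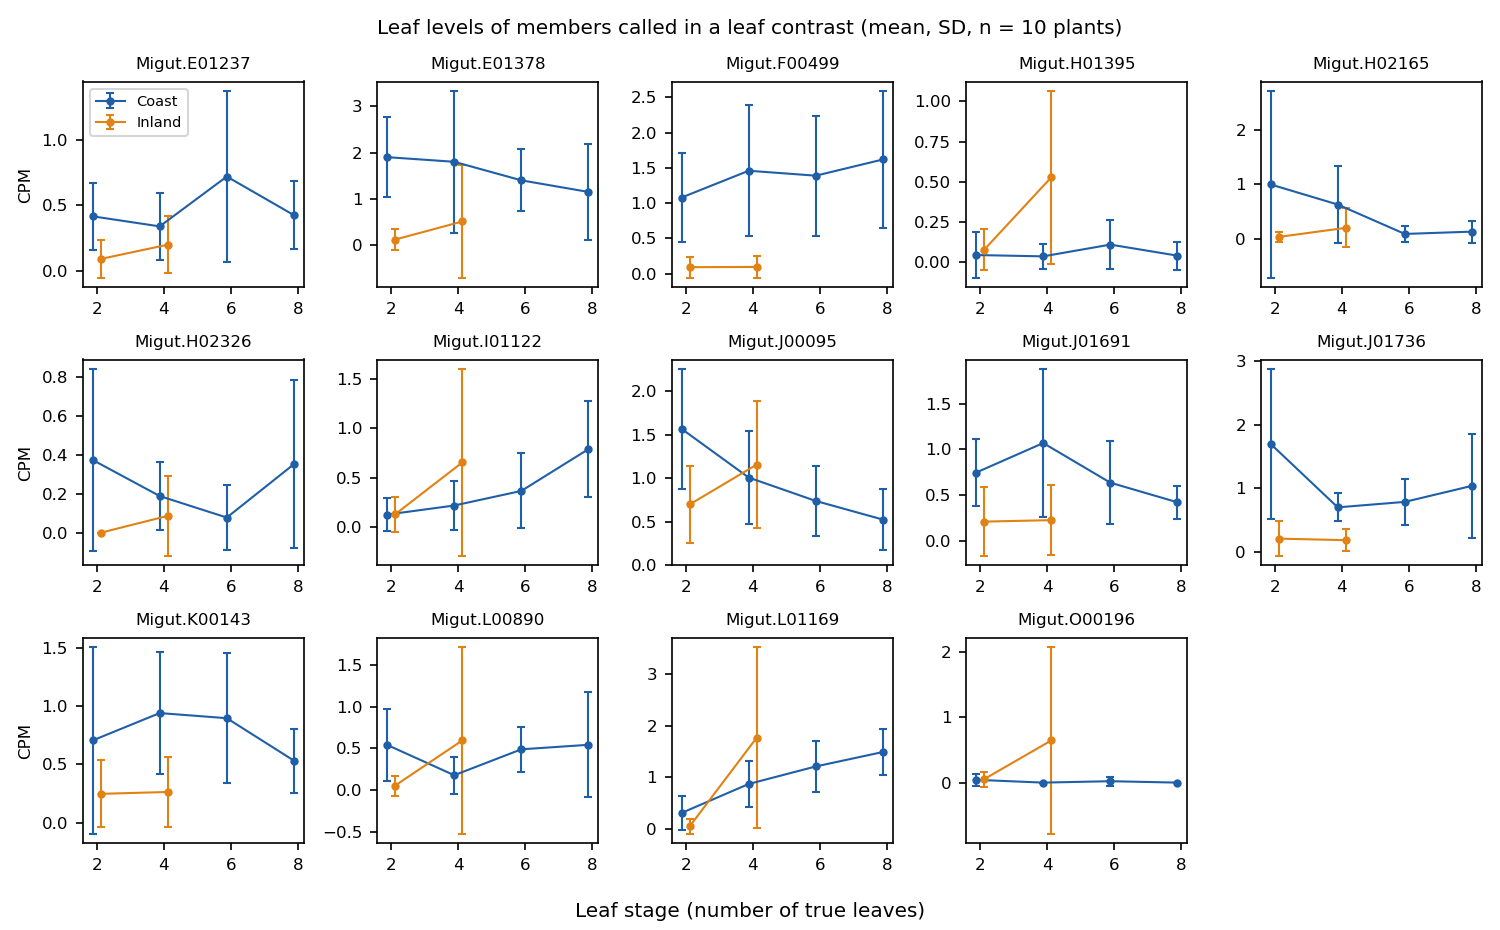
Mean level (CPM, bars SD, n = 10 plants) of the 14 members called in at least 1 leaf contrast, against the number of true leaves, in Coast (blue) and Inland (orange) plants. All means lie under 2 CPM. Migut.F00499, Migut.E01378, Migut.J01691 and Migut.J01736 were called higher in Coast leaves at both shared stages, and Migut.L01169 increases with stage in Coast leaves.

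In the v2.0 models the letters A to N of an identifier name linkage groups and the number the order along them, and the letter O is not a linkage group. Members were found under 13 of the 15 letters. Letter H held 10 members (17.2%), against 10.1% of the 11597 genes and 9.09% of all genes, and letter J held 9 (15.5%), against 7.34% and 6.73%. Letters A and G held none. These shares are counts with no test.

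Another member lay within 5 gene numbers of 4 of the 58 members (6.9%), where 2.0% of all genes had a member so near, and within 2 gene numbers of the same 4, where 0.81% of all genes did. These were 2 adjacent pairs, Migut.H01898 with Migut.H01899 and Migut.K00142 with Migut.K00143. Migut.K00142 had 15.8, 29.7 and 49.6 CPM (lowest, median, highest) in Coast bud plants and 0, 0.534 and 1.44 CPM in Inland bud plants. Migut.K00143 had 5.25, 11.8 and 15.3 CPM in Coast bud plants and 0, 0.136 and 0.914 CPM in Inland bud plants. The next gene, Migut.K00144 (chosen after its values were seen), met the mirrored rule, with means of 1.79 CPM in Coast buds and 34.1 CPM in Inland buds, so that adjacent genes went opposite ways.

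A gene of the mirrored rule within 5 gene numbers was found for 12 of 58 members (20.7%), against 6.07% of all genes, and within 2 gene numbers for 3 (5.17%), against 2.46%. Other such pairs, named after their values were seen, were Migut.N01740 with Migut.N01742 (5.05 CPM in Coast and 30.1 CPM in Inland buds) and Migut.E01237 with Migut.E01240 (3.64 CPM in Coast and 73.2 CPM in Inland buds). A shared bud-specific gene lay within 5 gene numbers of 15 members (25.9%), against 13.7% of all genes. Whether the genes of a pair are near-identical copies between which reads could be exchanged was not tested. Counts of such pairs are therefore uncertain.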

How the data were processed

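RNA of 80 plants was read by 3′-Tag-Seq, and the deposited table holds the authors' counts per gene, whole numbers with no normalisation. According to the labels and the methods of the study, reads were trimmed with Cutadapt, checked with FastQC, mapped by BWA-MEM on version v2.0 of the species' genome, filtered with SAMtools for high-quality primary alignments and counted with HTSeq 0.6.1. Levels were not scaled by gene length. Members are ranked by their share of the counts, and differences are compared between plants. Groups, plant numbers and the 4 library pools came from the labels. Besides the genes there were 6 lines of labels, and each column of counts was matched to a sample.

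CPM used the library total without further scaling, and bud and leaf group means were compared with the thresholds of the rule. Leaf contrasts used edgeR 4.0.16 in R 4.3.3 (filterByExpr on the design with a minimum count of 10 and a minimum total of 15, TMM factors, quasi-likelihood F test, Benjamini-Hochberg adjustment over all genes tested, threshold 0.05). The 60 libraries of 2leaf, 4leaf and bud were fitted with genotype, stage and their interaction, as in the study, and all 80 as 8 groups for the Coast leaf stages. The study's methods use voom with limma, which was run here as an alternative because the table holds counts. The standard error of a fold change was derived from its F value. The fits were tested on simulated data in which only well-counted genes were changed. This did not cover genes as low in leaves as the members. Alternatives were voom with limma 3.58.1, DESeq2 1.42.0, other scalings and filters, library pool as a term, a plant number block and other thresholds of the rule. Library totals of 1256776 to 6090402 counts mean that a single count is worth less than 1 CPM in every library.

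The members, gene lists, tests and alternatives were chosen with earlier results of these data known. Genes named are the members with no count in Inland buds, the 8 most abundant others, those nearest the thresholds, up to 3 per direction of the largest changes called in each leaf contrast, and neighbouring members. In the 4leaf and 6leaf against 2leaf contrasts of Coast plants only counts are given. Other genes are marked as chosen after their values were seen. The reference table used here matched 0 of the identifiers, so no names or sequences are given, and raw reads were not used.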

Additional observations from a re-analysis of the deposited data

Results flagged for a closer look

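In 9 of the 24 sets of 10 plants checked, 1 plant lay far from the others by Dixon's ratio, which sets the distance of the end plant from its neighbour against the whole range. Chance alone does this in about 1 in 20 groups where values are normally distributed and groups independent. The sets here shared plants and genes, and each of the 9 plants was the highest of its group. Nothing is therefore read from the number of sets flagged. In Coast buds the plants were plant 1 for Migut.D02012, at 308 CPM, and plant 7 for Migut.H02326, at 62.7 CPM, each the highest of its group. In Inland buds plant 7 was the highest for Migut.N01740, at 785 CPM, for Migut.I01055, at 231 CPM, for Migut.N00624, at 87.5 CPM, and for the members' summed level, at 1536 CPM. Plant 3 was the highest Inland bud plant for Migut.E01237, at 18.6 CPM, still under every Coast bud plant. The summed level of the members also stood out in leaves, at 31 CPM in Coast 6leaf plant 6 and 38.5 CPM in Inland 4leaf plant 4.

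The difference between the lines changed between leaf stages for Migut.L01169, with an interaction of -2.92 on the log2 scale (edgeR adjusted p = 0.0354). Over 10 alternatives the adjusted p was 0.0162 to 0.171, and the call was lost in 2, with voom and limma and without the 4 libraries that stand apart.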

How the results depend on the processing

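The size of the set followed the thresholds. Against 58 genes, a leaf limit of 5 CPM gave 102, a Coast bud minimum of 5 CPM gave 104 and one of 20 CPM gave 33, a ratio of at least 2 gave 119 and one of at least 8 gave 38, and library pool 2 alone gave 104. With a floor of 10 counts, 8 members in place of 2 were at or under it in Inland buds. With voom and limma, 5 members in place of 9 were called at 2leaf (5 higher), 5 in place of 8 at 4leaf (0 lower in place of 3), and 0 in place of 1 for the interaction. DESeq2 called 2 members for the interaction. Without the 4 libraries that stand apart, 1 member in place of 3 was lower at 4leaf, and 0 in place of 1 was called for the interaction. With library size alone, the median of all genes moved to 0.45 on the log2 scale at 8leaf against 2leaf in Coast plants. It moved to 0.10 between Coast and Inland buds. A window of 2 gene numbers gave 3 members near a mirrored gene in place of 12. No called log2 difference of a member in leaves changed sign under an alternative. The balance of calls did turn at 4leaf against 2leaf in Coast plants (1 higher and 0 lower with voom and limma, against 0 and 1) and at 8leaf against 2leaf (3 higher and 2 lower with library size alone, against 2 and 4). A filter without groups left no member to test. Leaving out plant 7 of both bud groups, chosen after the data were seen, changed no leaf call count by over 1.5 times. Equal plant numbers did not pair plants (280 pairs, median correlation of deviations -0.00657, lowest -0.431), and nothing in the labels says they should. With the plant number as a replicate block, 9 members were called at 2leaf, 10 at 4leaf, 7 at 8leaf and 1 for the interaction. Members in leaves rest on few counts, so a leaf difference that was not called may have been too small to detect at this depth. The bud values rest on plants of a single line per ecotype.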
